A study of Mus musculus with 9 samples.

Results

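The 9 genes described here carry the insulin signal in fat cells from its receptor to the glucose transporter GLUT4. They were chosen by symbol in the probe annotation, as Insr, Irs1, Irs2, Pik3r1, Akt1, Akt2, Tbc1d4, Slc2a4 and Grb10, from 18193 measured genes. The study measured total RNA of 3T3-L1, a line of mouse fibroblasts that become fat cells under a hormone cocktail, on 9 single-colour oligonucleotide arrays. PPAR gamma is the nuclear receptor that drives adipocyte differentiation, and the study asked what its depletion does to adipocytes that are already mature. PPAR gamma siRNA adipocytes (3 arrays) were electroporated with siRNA against PPAR gamma 14 days after induction, and control siRNA adipocytes (3 arrays) received a non-targeting oligonucleotide in the same way. Preadipocytes (3 arrays) were the undifferentiated cells.

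Both adipocyte groups had been induced with insulin (10 µg/ml), dexamethasone (1 µM) and the phosphodiesterase inhibitor IBMX (0.5 mM) for 2 days, followed by 2 days in insulin alone. By the labels, maturity was reached at 8 days, when 95% or more of the cells had adipocyte shape. The siRNA amount was 2 or 3 nmol, not assigned to single arrays, and no source used here gives the interval until harvest. Electroporation, trypsin and collagenase reached the adipocytes only, so that their effects and those of differentiation cannot be told apart in comparisons with preadipocytes. The submitters call the 3 arrays of a group technical replicates, so p-values reflect the spread among these samples alone, which may be technical.

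Insulin binding activates the receptor INSR, a tyrosine kinase that phosphorylates the substrates IRS1 and IRS2. These recruit PI3 kinase, whose regulatory subunit p85 alpha is the product of Pik3r1, and the lipid it makes brings the kinases AKT1 and AKT2 to the membrane. AKT2 phosphorylates TBC1D4, also called AS160, which then stops holding GLUT4 vesicles inside the cell, and GLUT4, the product of Slc2a4, moves to the surface of fat and muscle cells. GRB10 is an adaptor that binds the receptor and dampens its signal.

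In PPAR gamma siRNA adipocytes a substrate, an AKT target and the transporter at the end of this chain were lower. The other steps of the chain had no called change by their brightest probe sets. Irs2 was 3.604-fold and Slc2a4 3.08-fold lower in PPAR gamma siRNA than in control siRNA adipocytes. Tbc1d4 was 1.25-fold lower, a call that was lost in 6 of 19 alternative settings. By its brightest probe set, none of the 9 genes was called higher (limma adjusted p under 0.05, Benjamini-Hochberg over 45037 probe sets). Of all genes 19.9% were. At an unadjusted limma p under 0.05 only Pik3r1 was higher. With the Actb difference described below as a covariate, Pik3r1 was called higher. The 3 lower genes of 9 stand against 16.1% of all genes called lower, and the 3 called in either direction against 35.9% of all genes. The median log2 difference of the 9 genes was -0.07, and that of all genes -0.0088.

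More of the pathway differed between adipocytes and preadipocytes. In control siRNA adipocytes 7 of the 9 genes were higher than in preadipocytes and 1, Akt1, was lower. Of all genes 27.1% were called higher, 24.7% lower and 51.8% in either direction. With all probe sets of a gene averaged, 5 of the 9 were called higher and 1 lower, against 4946 and 4658 of 18193 genes. By the brightest probe set of each gene, the median log2 difference of the 9 genes was 0.73, against 0.09 over all genes. That median is the value of Pik3r1, whose 4 probe sets averaged gave 0.10, without a call. In PPAR gamma siRNA adipocytes 5 of the 9 were still higher than in preadipocytes and Akt1 was lower. Of all genes 19.6% were higher, 16.9% lower and 36.5% called in either direction. With all probe sets of a gene averaged, 4 of the 9 were higher and 1 lower, against 3269 and 3407 of 18193 genes.

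**Figure D1:**
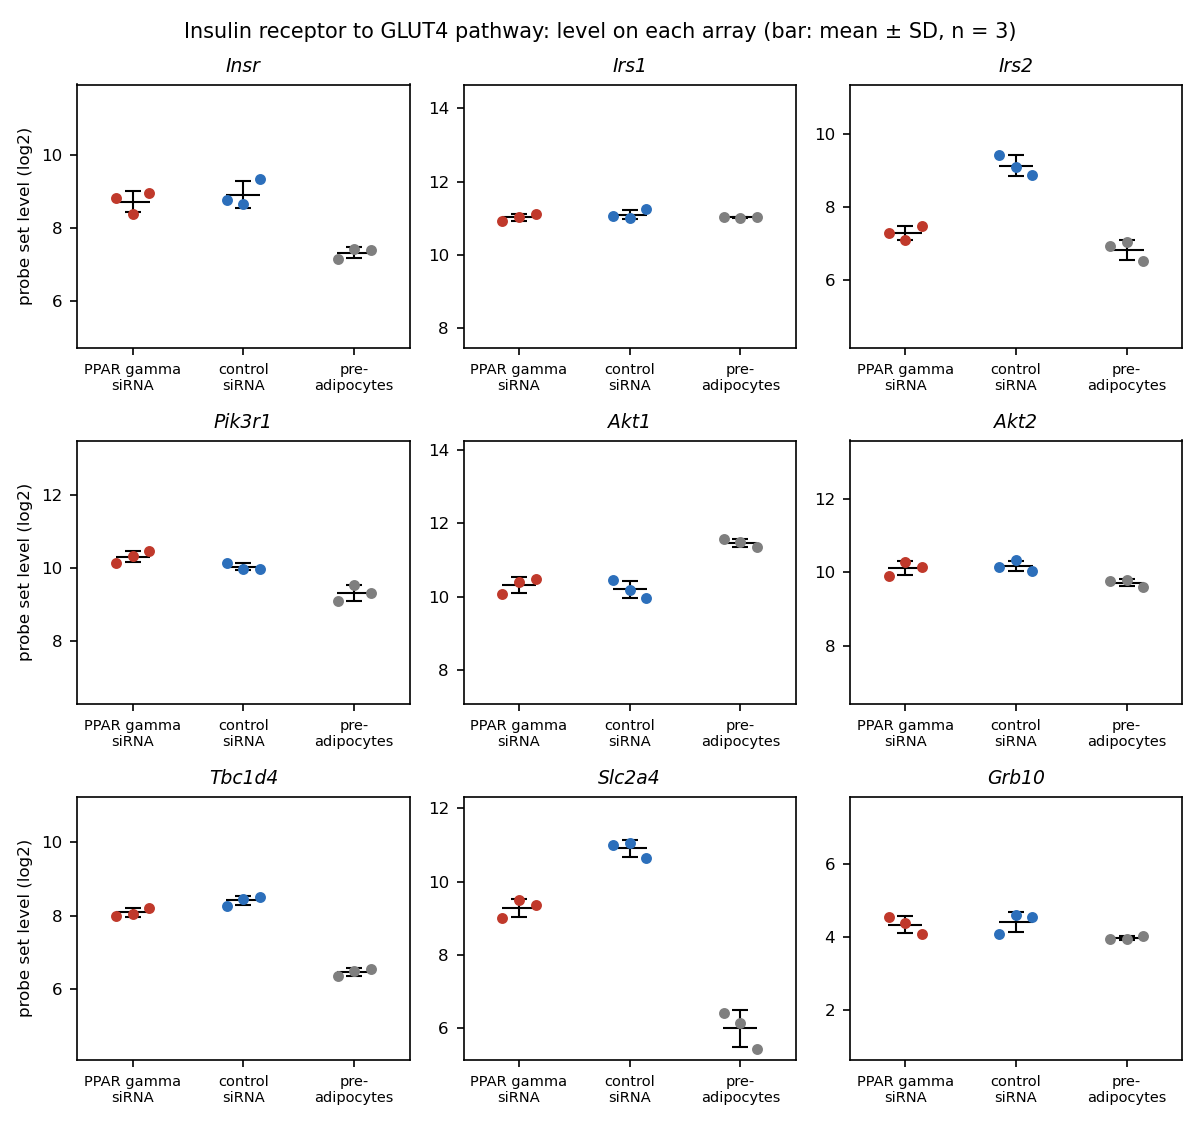
Level of each of the 9 genes on each array. The vertical axes give the log2 level of the gene's brightest probe set and all span the same number of log2 units, points are arrays in 3 groups, and bars are the mean ± SD of 3 arrays. Slc2a4 has the widest spread of group means, at 9.28, 10.90 and 5.99, and Irs1 lies near 11 in all groups.

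The siRNA target was checked first. Pparg read 9.54, 9.58 and 9.64 on the log2 scale on the PPAR gamma siRNA arrays and 12.89, 12.82 and 12.65 on the control siRNA arrays, against 8.35, 8.20 and 8.12 on the preadipocyte arrays. It was 9.20-fold lower with PPAR gamma siRNA than with control siRNA and stayed 2.57-fold higher than in preadipocytes. Array medians lay between 4.82 and 4.89. Levels of different probe sets are not comparable, so levels are compared between groups for 1 gene at a time, and pairs of genes only by how their difference within an array shifts between groups.

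The sums of adipocyte and preadipocyte markers moved with the groups, and such sums are set mostly by their brightest genes. The summed level of 5 measured adipocyte markers was 13.85 to 13.96 on the log2 scale with PPAR gamma siRNA and 15.79 to 15.85 with control siRNA, against 6.91 to 7.01 in preadipocytes. The sum of 5 preadipocyte markers was 12.76 to 13.40 with PPAR gamma siRNA and 10.85 to 11.37 with control siRNA, against 14.48 to 14.57 in preadipocytes. Between the siRNAs 4 of the 5 adipocyte markers were called lower, against 16.1% of all genes. Of the 5 preadipocyte markers 4 were called higher, against 19.9% of all genes. The others, Lep and Cd34, lay under 6 on every array and were not called between the siRNAs. All 6 endothelial and all 7 skeletal muscle markers lay under 6 on every array. Of the 6 macrophage markers, 4 lay under 6 on every array. The sum of all 6 was 7.49 to 8.04 with PPAR gamma siRNA, 7.25 to 7.33 with control siRNA and 6.87 to 6.96 in preadipocytes. Cd68 was called higher with PPAR gamma siRNA than with control siRNA, at means of 6.56 and 5.36. The other macrophage markers were not called between the siRNAs. RNA integrity was read from the 3′ minus 5′ difference of Actb. It was 0.54 to 1.25 with PPAR gamma siRNA, 0.91 to 1.30 with control siRNA and 0.23 to 0.36 in preadipocytes. The same difference of Gapdh lay between -0.19 and 0.11, and its 3 groups overlapped. The part of the marker shifts in the results below was not tested. With the Actb difference as a covariate, the calls of Insr, Irs1, Irs2, Akt1 and Slc2a4 did not change in any comparison. Those of Pik3r1, Akt2, Tbc1d4 and Grb10 did, as given with each. Every preadipocyte array had a smaller Actb difference than every adipocyte array. In comparisons with preadipocytes the fit therefore cannot fully separate this covariate from the group. In RNA from whole cultures, fewer cells of a type and less RNA per cell cannot be told apart.

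Insr, the receptor, was raised in both kinds of adipocyte. It read 8.80, 8.39 and 8.96 on the PPAR gamma siRNA arrays and 8.75, 8.65 and 9.33 on the control siRNA arrays, against 7.15, 7.41 and 7.41 on the preadipocyte arrays. Every adipocyte array lay above every preadipocyte array, while the adipocyte groups overlapped. PPAR gamma siRNA adipocytes were 2.63-fold above preadipocytes (log2 difference 1.40 ± 0.19 SE, limma adjusted p = 0.00012), and control siRNA adipocytes 3.01-fold (1.59 ± 0.19, limma adjusted p = 1.97e-05). Between PPAR gamma siRNA and control siRNA the difference was -0.19, with a 95% interval from -0.60 to 0.21 and an adjusted p of 0.528 in limma. The group means were 8.72, 8.91 and 7.32, and the order of the adipocyte groups is within their spread. Both other probe sets of Insr lay under 6 on every array and gave differences of 0.44 and 0.43 between control siRNA adipocytes and preadipocytes, both called. Between PPAR gamma siRNA adipocytes and preadipocytes they gave 0.38, which was called, and 0.21, which was not (limma adjusted p = 0.326). The mean of its 3 probe sets was 0.66 above preadipocytes with PPAR gamma siRNA and 0.82 with control siRNA, also called.

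The substrates Irs1 and Irs2 parted. Irs1 read 10.93, 11.04 and 11.12 with PPAR gamma siRNA and 11.06, 10.995 and 11.24 with control siRNA, against 11.03, 11.01 and 11.04 in preadipocytes. Its 3 groups overlapped throughout, and each group mean was 11.03 to 11.10. The intervals of its differences ran from -0.27 to 0.13 between the siRNAs, from -0.13 to 0.27 between control siRNA adipocytes and preadipocytes, and from -0.20 to 0.20 between PPAR gamma siRNA adipocytes and preadipocytes, on the log2 scale.

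Irs2, a second substrate of the same receptor, read 7.28, 7.10 and 7.48 with PPAR gamma siRNA and 9.44, 9.09 and 8.89 with control siRNA, against 6.94, 7.04 and 6.52 in preadipocytes. The control siRNA arrays stood alone at the top, and the other groups did not overlap with them or with each other. The log2 difference was -1.85 ± 0.17 between PPAR gamma siRNA and control siRNA (SE, limma adjusted p = 4.89e-06) and 2.30 ± 0.17 between control siRNA adipocytes and preadipocytes (limma adjusted p = 2.99e-07), a 4.94-fold rise. Between PPAR gamma siRNA adipocytes and preadipocytes it was 0.45, with an interval from 0.09 to 0.82 and a limma adjusted p of 0.0608. Irs2 and Irs1 have 1 single-symbol probe set each, so no second reading of either is at hand.

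Within each array, Irs2 minus Irs1 does not depend on a shift common to all log2 values, although its zero has no meaning. Normalisation that acts differently at different levels can still alter it, which was not tested. This difference changed by -1.78 log2 units on the PPAR gamma siRNA arrays relative to the control siRNA arrays, and was 2.23 higher on the control siRNA arrays than on the preadipocyte arrays. The groups did not overlap, and both exact two-sided permutation tests gave p = 0.1, the smallest that 3 against 3 arrays allow (0.1125 adjusted over 9 tests). On the PPAR gamma siRNA arrays the difference was 0.46 above that on the preadipocyte arrays, also without overlap and at a permutation p of 0.1. This p therefore does not tell large from small shifts. Irs1 moved little, so that the shifts are mostly those of Irs2.

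The promoters of both substrate genes are shown because the genes are alike in role and differed in response. In the RefSeq promoter table (GRCm38.p6, 300 bases that lie mostly before the annotated start), 7 of the 9 genes had an entry. Irs1 is given from chr1:82291390-82291689 and Irs2 from chr8:11008880-11009179, both on the minus strand, 5′ to 3′ along the gene. Capitals mark matches, on either strand, to the GC box GGGCGG, the CCAAT box CCAAT and the E-box CACGTG.
Irs1: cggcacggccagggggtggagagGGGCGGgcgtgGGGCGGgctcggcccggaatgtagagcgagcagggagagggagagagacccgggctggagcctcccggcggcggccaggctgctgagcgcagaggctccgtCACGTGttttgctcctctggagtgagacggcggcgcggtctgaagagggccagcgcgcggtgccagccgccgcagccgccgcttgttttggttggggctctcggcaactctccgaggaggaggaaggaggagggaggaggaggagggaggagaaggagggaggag
Irs2: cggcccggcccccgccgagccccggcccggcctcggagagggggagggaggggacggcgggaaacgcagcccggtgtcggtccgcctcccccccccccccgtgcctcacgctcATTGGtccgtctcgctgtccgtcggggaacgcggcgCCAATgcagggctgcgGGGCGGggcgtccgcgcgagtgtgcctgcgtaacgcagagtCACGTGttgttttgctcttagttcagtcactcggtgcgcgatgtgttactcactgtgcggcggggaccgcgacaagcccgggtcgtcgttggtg
Irs1 held 3 matches, to the GC box and the E-box, and Irs2 held 4, to the CCAAT box on both strands, the GC box and the E-box. Of 32851 promoters in the table, 35.7% held the GC box, 37.4% the CCAAT box and 7.15% the E-box. The GC content was 71.3% for Irs1 and 72% for Irs2, against a median of 52.7% over the table. Neither window held the nuclear receptor motif AGGTCA, which 16.3% of promoters held, or its repeat with 1 base between, AGGTCANAGGTCA, which contains it and stood in 0.0396%. Neither held the FOXO site GTAAACA (3.65% of promoters), the MEF2 site CTANNNNTAG (3.69%) or the GATA site AGATAA (11.2%). These are letters in a short window, and the choice of genes and motifs was made with the array values known.

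Pik3r1, the p85 alpha subunit of PI3 kinase, was higher in adipocytes by its brightest probe sets. It read 10.15, 10.32 and 10.46 with PPAR gamma siRNA and 10.14, 9.98 and 9.97 with control siRNA, against 9.09, 9.53 and 9.30 in preadipocytes. The 3 groups did not overlap, with PPAR gamma siRNA on top, although its lowest array and the highest control siRNA array differed by little. PPAR gamma siRNA adipocytes stood 1.00 ± 0.12 log2 units above preadipocytes (SE, limma adjusted p = 6.42e-05) and control siRNA adipocytes 0.73 ± 0.12 (limma adjusted p = 0.000414). The difference of 0.28 between the siRNAs had an interval from 0.01 to 0.54 and was not called (limma adjusted p = 0.133). With the Actb difference as a covariate it was 0.37 and called (limma adjusted p = 0.0407). Groups without overlap between the siRNAs were found for 4 of the 9 genes, against 44.4% of all genes. They were found for 8 of the 9 between control siRNA adipocytes and preadipocytes, against 61.5%, and for 8 between PPAR gamma siRNA adipocytes and preadipocytes, against 49.8%.

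The 4 probe sets of Pik3r1 disagreed on differentiation. The second brightest gave 0.61 between control siRNA adipocytes and preadipocytes, and was called. The third read 6.98, 7.42 and 7.28 with PPAR gamma siRNA and 6.87, 6.94 and 7.33 with control siRNA, against 7.60, 7.72 and 7.52 in preadipocytes, and was called lower (-0.56 ± 0.14 SE between control siRNA and preadipocytes, limma adjusted p = 0.00663). The fourth gave -0.38 and was not called (limma adjusted p = 0.0926). Averaged over the 4 probe sets, Pik3r1 was 0.31 above preadipocytes with PPAR gamma siRNA, with a call, and 0.10 with control siRNA, without one. With the Actb difference as a covariate the difference between control siRNA adipocytes and preadipocytes was 0.44 and not called. Which transcripts each probe set reads was not tested.

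**Figure D2:**
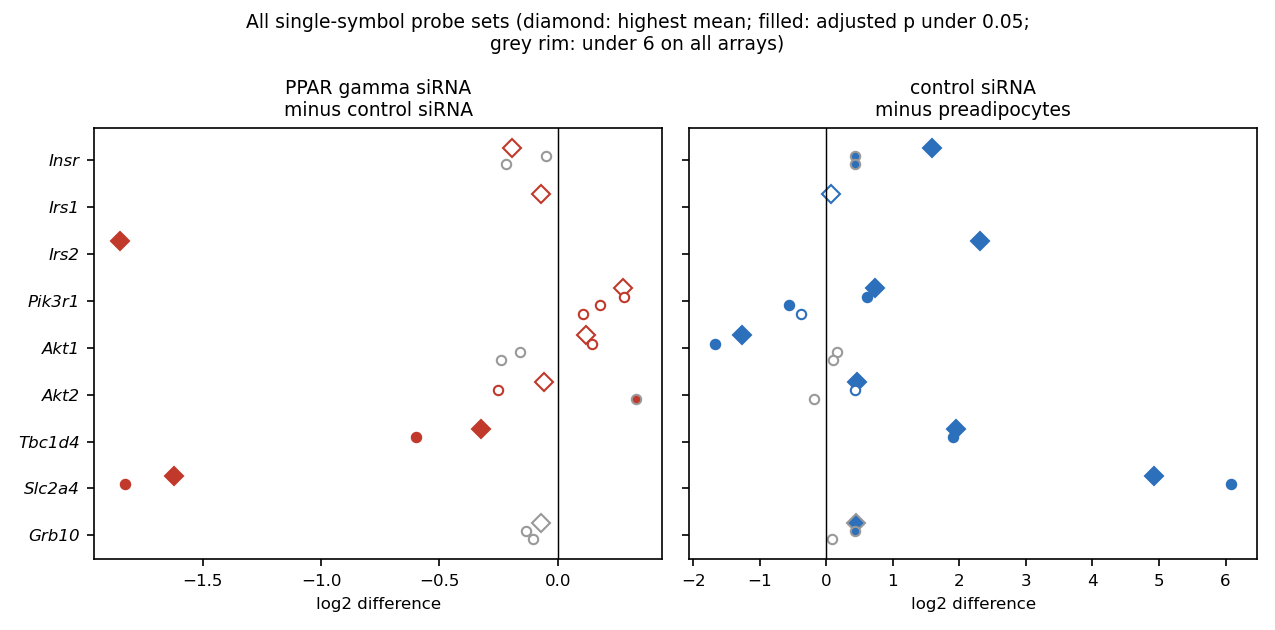
Log2 difference of every single-symbol probe set of the 9 genes, with PPAR gamma siRNA minus control siRNA on the left and control siRNA minus preadipocytes on the right. Diamonds are the brightest probe set of a gene, circles the others, filled symbols have an adjusted p under 0.05, and grey rims lie under 6 on all arrays. The 2 probe sets of Slc2a4 and of Tbc1d4 lie on 1 side of 0 in both panels, and those of Pik3r1 lie on both sides in the right panel.

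Akt1 was the only one of the 9 genes whose brightest probe set was called lower in adipocytes than in preadipocytes. It read 10.08, 10.40 and 10.49 with PPAR gamma siRNA and 10.44, 10.19 and 9.98 with control siRNA, against 11.58, 11.48 and 11.35 in preadipocytes. All preadipocyte arrays lay above all adipocyte arrays, and the adipocyte groups overlapped. It was 2.22-fold lower in PPAR gamma siRNA adipocytes and 2.41-fold lower in control siRNA adipocytes than in preadipocytes (limma adjusted p = 5.40e-05 and 1.04e-05). The difference of 0.12 between the siRNAs had an interval from -0.18 to 0.42 (limma adjusted p = 0.603). A second probe set of Akt1 gave -1.53 between PPAR gamma siRNA adipocytes and preadipocytes and -1.67 between control siRNA adipocytes and preadipocytes, both called. The other two lay under 6 on every array and were called in no comparison, and the mean of all 4 gave -0.70 and -0.67, both called.

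Akt2, the AKT that acts on GLUT4 traffic, moved little. It read 9.90, 10.29 and 10.15 with PPAR gamma siRNA and 10.15, 10.33 and 10.04 with control siRNA, against 9.77, 9.78 and 9.61 in preadipocytes. The adipocyte groups overlapped, and every adipocyte array lay above the preadipocyte arrays. PPAR gamma siRNA adipocytes stood 0.40 ± 0.12 log2 units above preadipocytes (SE, limma adjusted p = 0.0232) and control siRNA adipocytes 0.45 ± 0.12 (limma adjusted p = 0.00739). Its second probe set gave 0.17 and 0.43 for the same comparisons, called in neither, and the mean of its 3 probe sets gave 0.24 and 0.23, also without a call. Neither comparison was called with the Actb difference as a covariate, at 0.39 and 0.45. Leaving out PPAR gamma siRNA array 2, PPAR gamma siRNA array 3 or preadipocyte array 3 also ended the call between PPAR gamma siRNA adipocytes and preadipocytes, at 0.31, 0.38 and 0.34. Between the siRNAs the difference was -0.06, with an interval from -0.32 to 0.20. The dimmest probe set of Akt2, under 6 on every array, was called 0.33 higher with PPAR gamma siRNA than with control siRNA (limma adjusted p = 0.0432).

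The balance of Akt2 to Akt1 within an array shifted with differentiation. Akt2 minus Akt1 was 1.54 log2 units higher on the PPAR gamma siRNA arrays and 1.72 higher on the control siRNA arrays than on the preadipocyte arrays, with no overlap and an exact two-sided permutation p of 0.1 in both (0.1125 adjusted). Between PPAR gamma siRNA and control siRNA it differed by -0.18 (exact permutation p = 0.3), and the sign turned to 0.04 when all probe sets of a gene were averaged.

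**Figure D3:**
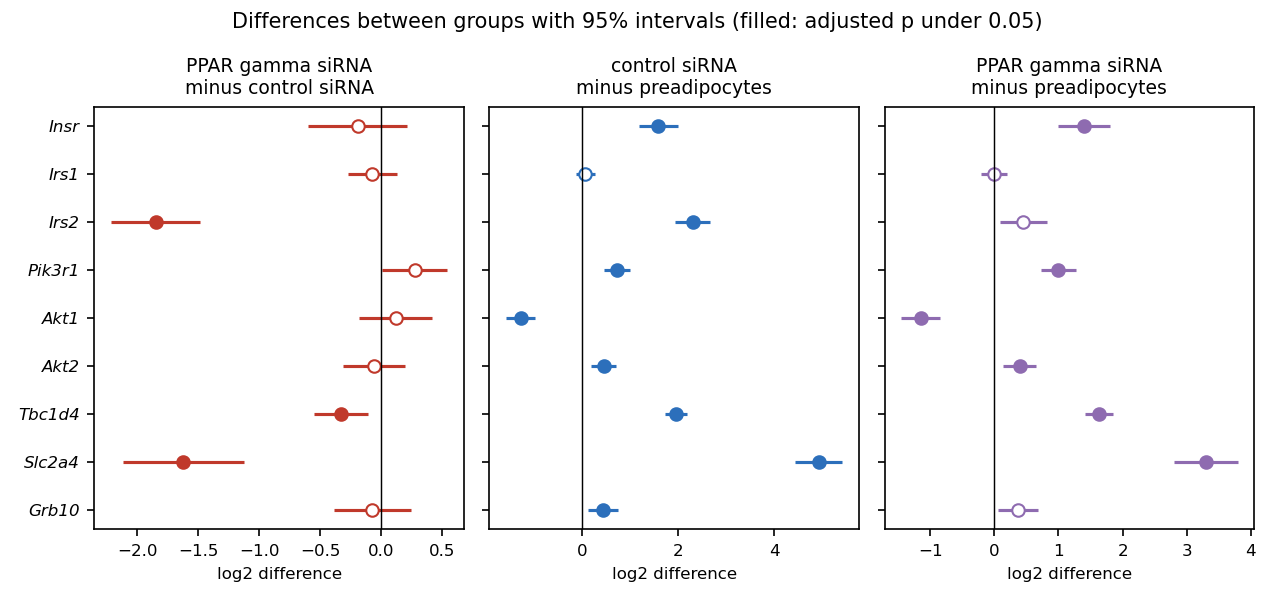
Log2 difference of each of the 9 genes in each of the 3 comparisons, with 95% intervals of the limma fit. Filled points have an adjusted p under 0.05. Between PPAR gamma siRNA and control siRNA, Irs2 at -1.85, Slc2a4 at -1.62 and Tbc1d4 at -0.33 are filled, and Irs1 is open in all 3 panels.

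Tbc1d4, the AKT substrate that restrains GLUT4 vesicles, was high in both adipocyte groups and slightly lower with PPAR gamma siRNA. It read 8.00, 8.05 and 8.22 with PPAR gamma siRNA and 8.27, 8.45 and 8.52 with control siRNA, against 6.34, 6.49 and 6.54 in preadipocytes. The 3 groups did not overlap and followed the order control siRNA, PPAR gamma siRNA, preadipocytes. PPAR gamma siRNA adipocytes were 3.09-fold above preadipocytes (log2 difference 1.63 ± 0.10 SE, limma adjusted p = 2.92e-07), and control siRNA adipocytes 3.88-fold (1.95 ± 0.10, limma adjusted p = 1.65e-08). The difference between the siRNAs was -0.33 ± 0.10 (limma adjusted p = 0.0317). That call was lost when only the adipocyte groups were fitted, with the Actb difference as a covariate, and without PPAR gamma siRNA array 1 or 2 or control siRNA array 2 or 3, with differences from -0.33 to -0.27. The second probe set read 7.04, 6.98 and 7.07 with PPAR gamma siRNA and 7.59, 7.56 and 7.74 with control siRNA, a difference of -0.60 ± 0.13 (SE, limma adjusted p = 0.00431).

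Slc2a4, which encodes GLUT4, had the largest range of group means among the 9 genes. It read 9.002, 9.49 and 9.35 with PPAR gamma siRNA and 11.01, 11.07 and 10.64 with control siRNA, against 6.41, 6.13 and 5.41 in preadipocytes. Its 3 groups lay far apart, with PPAR gamma siRNA between the others. Against control siRNA the PPAR gamma siRNA arrays fell by 1.62 ± 0.23 log2 units (SE, limma adjusted p = 0.000163). Against preadipocytes, PPAR gamma siRNA adipocytes were 9.81-fold and control siRNA adipocytes 30.2-fold higher (limma adjusted p = 6.30e-07 and 6.08e-09). The preadipocyte mean of 5.99 lies at the dim level of 6, with array 3 below it, so that the size of these folds rests on a dim signal.

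A second probe set of Slc2a4 gave a larger span. It read 8.93, 9.30 and 8.63 with PPAR gamma siRNA and 10.59, 11.01 and 10.75 with control siRNA, against 4.81, 4.89 and 4.40 in preadipocytes. The difference was -1.83 ± 0.18 between PPAR gamma siRNA and control siRNA, 6.08 ± 0.18 between control siRNA adipocytes and preadipocytes, and 4.25 ± 0.18 between PPAR gamma siRNA adipocytes and preadipocytes. All 3 were called. The fold against preadipocytes thus depended on the probe set, and all preadipocyte arrays of this one were under 6.

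Grb10, the adaptor that dampens the receptor, was dim. Its 3 probe sets lay under 6 on every array, and the brightest read 4.54, 4.39 and 4.10 with PPAR gamma siRNA and 4.10, 4.596 and 4.54 with control siRNA, against 3.94, 3.94 and 4.03 in preadipocytes. The adipocyte groups overlapped and both lay above the preadipocyte arrays. The difference of 0.44 ± 0.14 between control siRNA adipocytes and preadipocytes was called (limma adjusted p = 0.0257), but not without control siRNA array 2 or 3 or preadipocyte array 1 or 2. The others were not called, at 0.37 between PPAR gamma siRNA adipocytes and preadipocytes and -0.07 between the siRNAs. The difference between PPAR gamma siRNA adipocytes and preadipocytes was called in 5 of 18 alternative settings, among them without PPAR gamma siRNA array 3 or control siRNA array 1. With the Actb difference as a covariate it was 0.69 and called (limma adjusted p = 0.003), and that between control siRNA adipocytes and preadipocytes was 0.93. At such levels the arrays say little about Grb10.

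Without Grb10 the pathway had 8 genes with at least 1 probe set above 6, and Irs2 and Slc2a4 were the ones that PPAR gamma siRNA lowered at least 2-fold. Slc2a1 encodes GLUT1, the transporter of unstimulated cells, and gives a comparison for Slc2a4. Slc2a1 read 11.91, 10.96 and 11.12 with PPAR gamma siRNA and 10.93, 10.92 and 10.88 with control siRNA, against 10.29, 10.09 and 10.43 in preadipocytes. All PPAR gamma siRNA arrays lay above the control siRNA arrays, array 1 by far, and the difference of 0.42 ± 0.20 was not called (SE, limma adjusted p = 0.156). It was 0.13 without PPAR gamma siRNA array 1, and was called at 0.61 without array 2 (limma adjusted p = 0.0454). Slc2a4 minus Slc2a1 within an array differed by -2.05 log2 units between PPAR gamma siRNA and control siRNA, and was 4.28 higher in control siRNA adipocytes relative to preadipocytes, each without overlap (exact permutation p = 0.1, the smallest possible).

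Slc2a4, Irs2 and Tbc1d4 had the widest ranges of group means, and the genes with the most similar profile were sought for each. Likeness was the root mean square difference between profiles centred on their own mean, over 9 arrays and 18193 genes. Closest to Slc2a4 were Coq8a, Aspa, Rgcc, Tmcc3 and Kcnk3, at 0.289 to 0.315 log2 units. Closest to Irs2 were Letm1, Dgkd, Sfxn1, Bcl2l13 and Cisd1, at 0.165 to 0.191. Closest to Tbc1d4 were Tkt, Sik2, Inca1, Ncoa1 and Phyh, at 0.109 to 0.138. Letm1, for example, read 7.66, 7.69 and 7.75 with PPAR gamma siRNA and 9.70, 9.69 and 9.47 with control siRNA, against 7.66, 7.48 and 7.23 in preadipocytes. As for Irs2, its control siRNA arrays stood alone at the top. The profiles follow 3 groups of 3 arrays, so that likeness is a description with few degrees of freedom.

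Around the 9 genes, 96 of 104 other genes of the pathway were measured, in 6 lists by role. The rest were not analysed here. With PPAR gamma siRNA 31 were higher and 20 lower, relative to control siRNA, which is 53.1% of them against 35.9% of all genes. In control siRNA adipocytes, 32 were higher and 31 lower than in preadipocytes, 65.6% against 51.8%. Between PPAR gamma siRNA adipocytes and preadipocytes 28 were higher and 16 lower, 45.8% against 36.5%. The median differences were 0.05, 0.01 and 0.09, and those of all genes -0.0088, 0.09 and 0.07.

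**Figure D4:**
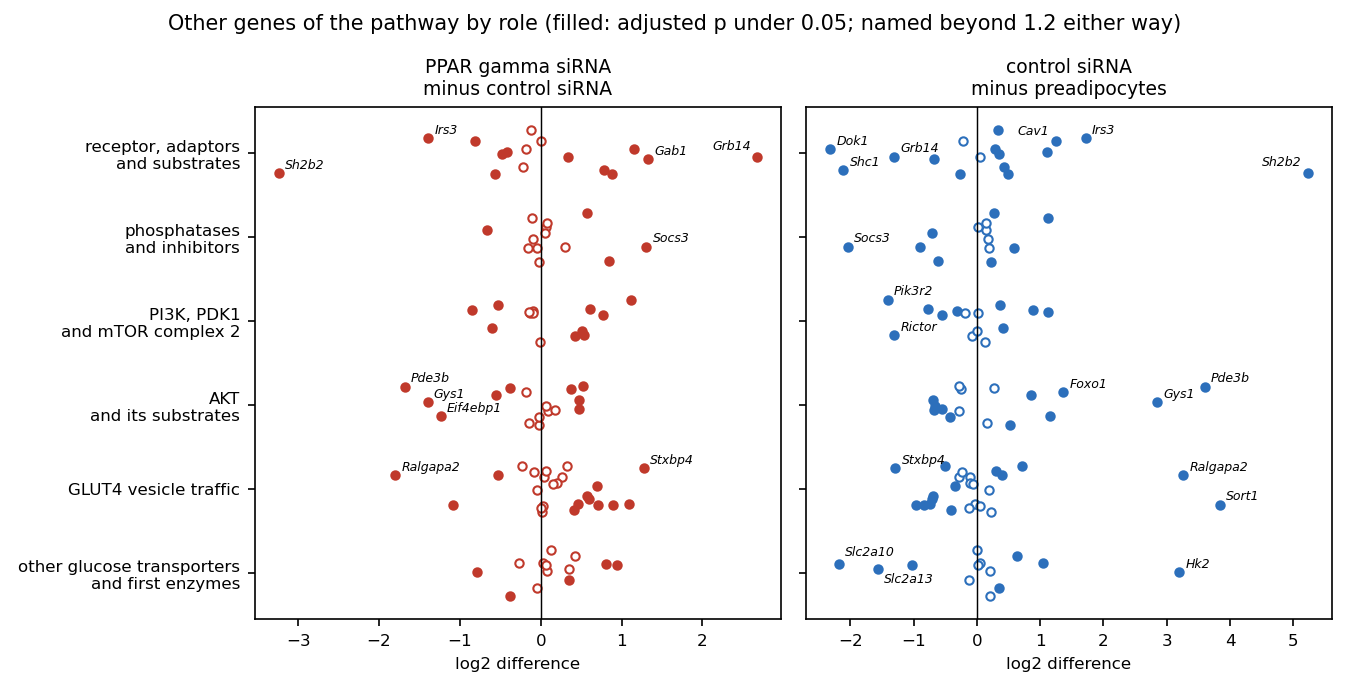
Log2 difference of 96 other genes of the pathway by role, with PPAR gamma siRNA minus control siRNA on the left and control siRNA minus preadipocytes on the right. Each circle is a gene, filled at an adjusted p under 0.05, and vertical position within a list has no meaning. Sh2b2 stands at -3.24 on the left and 5.23 on the right, and Grb14 at 2.67 on the left.

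Genes in the list of receptors, adaptors and substrates changed in both directions. Of 16 measured, 6 were higher and 6 lower under PPAR gamma siRNA relative to control siRNA, with a median of -0.15, against 19.9% higher and 16.1% lower of all genes, and 9 stood higher and 5 lower in control siRNA adipocytes relative to preadipocytes, with a median of 0.32, against 27.1% and 24.7%. Sh2b2, which encodes the receptor-binding adaptor APS, read 7.08, 6.67 and 6.62 with PPAR gamma siRNA and 10.10, 10.10 and 9.88 with control siRNA, against 4.90, 4.67 and 4.82 in preadipocytes. Its groups were far apart, and it fell by 3.24 ± 0.13 log2 units with PPAR gamma siRNA (SE, limma adjusted p = 8.77e-09). Grb14, which like Grb10 encodes an adaptor that inhibits the receptor, read 8.62, 9.06 and 9.21 with PPAR gamma siRNA and 6.38, 6.003 and 6.49 with control siRNA, against 7.55, 7.62 and 7.63 in preadipocytes. It was highest with PPAR gamma siRNA, above preadipocytes as well, at 2.67 ± 0.16 over control siRNA (SE, limma adjusted p = 1.67e-07) and 1.36 ± 0.16 over preadipocytes (limma adjusted p = 4.11e-05). With all its probe sets averaged these were 1.42 and 0.72, both called.

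Gab1, a docking protein for PI3 kinase, was also highest with PPAR gamma siRNA, at 9.39, 9.60 and 9.43, against 8.32, 8.14 and 7.98 with control siRNA. Irs3, a rodent substrate of the receptor, lay under 6 throughout, at 3.73, 3.67 and 3.602 with PPAR gamma siRNA and 5.05, 4.83 and 5.30 with control siRNA, and was called, at -1.39. Dok1 and Shc1, adaptors of receptor tyrosine kinases, took the opposite course to Sh2b2. Dok1 was 1.15 and Shc1 0.78 log2 units higher with PPAR gamma siRNA than with control siRNA, and they stood at -2.32 and -2.11 in control siRNA adipocytes relative to preadipocytes.

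**Figure D5:**
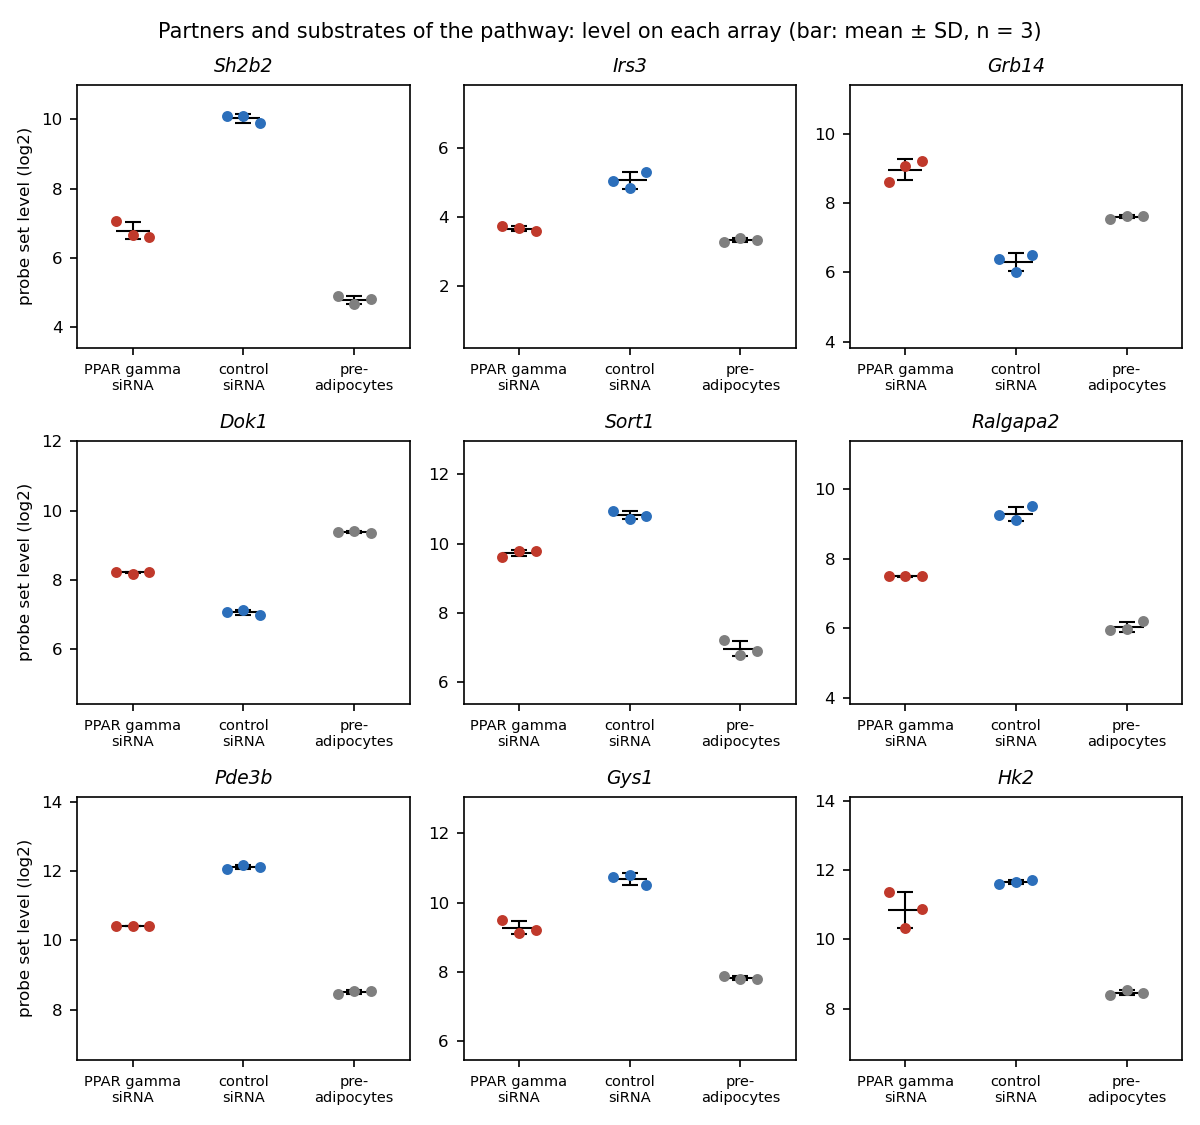
Level on each array of 9 other genes of the pathway, picked after the values were seen from those that the naming rule gave. The vertical axes give the log2 level of the gene's brightest probe set, points are arrays, and bars are the mean ± SD of 3 arrays. Sh2b2, Irs3, Sort1, Ralgapa2, Pde3b, Gys1 and Hk2 are highest with control siRNA, Grb14 with PPAR gamma siRNA and Dok1 in preadipocytes.

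Of 13 phosphatases and inhibitors, 3 were higher and 1 lower under PPAR gamma siRNA relative to control siRNA (median 0.05). That is 30.8% called, against 35.9% of all genes. The higher ones were Socs3, which acts against IRS proteins, at 1.31 ± 0.11, Prkcd, a protein kinase C, at 0.84 ± 0.09, and Inpp5k, an inositol phosphatase, at 0.57 ± 0.08. The lower one was Ptpn2, a tyrosine phosphatase of the receptor, at -0.67 ± 0.10 (SE), or -0.40 with all its probe sets averaged. Trib3, which binds AKT, stood 1.12 above preadipocytes in control siRNA adipocytes and differed by -0.11 between the siRNAs, where its arrays overlapped.

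Among 14 genes of PI3 kinase, PDK1 and mTOR complex 2, 6 were higher and 3 lower under PPAR gamma siRNA relative to control siRNA (median -0.05). That is 42.9% higher and 21.4% lower, against 19.9% and 16.1% of all genes. Pik3r2, the p85 beta subunit, read 9.75, 9.98 and 10.09 with PPAR gamma siRNA and 9.02, 8.85 and 8.62 with control siRNA, against 10.24, 10.32 and 10.16 in preadipocytes. It was lowest with control siRNA, 1.11 ± 0.12 under PPAR gamma siRNA (SE, limma adjusted p = 2.24e-05). Pdpk1, the kinase PDK1 that activates AKT, ran the other way, at 9.09, 8.86 and 9.14 with PPAR gamma siRNA and 9.91, 9.79 and 9.95 with control siRNA, against 8.82, 8.998 and 9.16 in preadipocytes. It fell by 0.85 with PPAR gamma siRNA relative to control siRNA and overlapped with preadipocytes. Rictor, the defining subunit of mTOR complex 2, fell by 1.31 in control siRNA adipocytes relative to preadipocytes, and Mtor itself was 1.12 higher. Averaged over all probe sets these differences were -0.70 and 0.46, both called.

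Of 16 AKT substrates and targets, 4 were higher and 5 lower under PPAR gamma siRNA relative to control siRNA (median -0.02). That is 25% higher and 31.2% lower, against 19.9% and 16.1% of all genes. Pde3b, the phosphodiesterase through which insulin restrains lipolysis, read 10.43 on each of the 3 PPAR gamma siRNA arrays and 12.05, 12.16 and 12.12 with control siRNA, against 8.45, 8.54 and 8.55 in preadipocytes. Its PPAR gamma siRNA values were identical in the deposited table, as in 0.819% of probe sets, so that their spread is not a measure of error. Gys1, glycogen synthase, read 9.49, 9.13 and 9.21 with PPAR gamma siRNA and 10.73, 10.81 and 10.49 with control siRNA, against 7.89, 7.79 and 7.80 in preadipocytes. Like Slc2a4, both lay with PPAR gamma siRNA between the other groups. Gsk3b, the kinase that inhibits glycogen synthase, was 0.48 ± 0.10 higher with PPAR gamma siRNA than with control siRNA, and Foxo3, a transcription factor that AKT keeps out of the nucleus, 0.53 ± 0.12 (SE).

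GLUT4 vesicle traffic had 9 genes higher and 3 lower of 24 under PPAR gamma siRNA relative to control siRNA (median 0.18), and 5 higher and 9 lower in control siRNA adipocytes relative to preadipocytes (median -0.12). Between the siRNAs that is 37.5% higher and 12.5% lower, against 19.9% and 16.1% of all genes, and between control siRNA adipocytes and preadipocytes 20.8% and 37.5%, against 27.1% and 24.7%. Sort1, sortilin, which builds GLUT4 vesicles, read 9.62, 9.78 and 9.79 with PPAR gamma siRNA and 10.93, 10.70 and 10.80 with control siRNA, against 7.22, 6.79 and 6.91 in preadipocytes. Ralgapa2, a subunit of the RAL GTPase-activating complex that AKT phosphorylates, read 7.49, 7.49 and 7.52 with PPAR gamma siRNA and 9.26, 9.13 and 9.51 with control siRNA, against 5.95, 5.97 and 6.20 in preadipocytes. Both fell with PPAR gamma siRNA, by 1.09 ± 0.12 and 1.80 ± 0.11 log2 units (SE). Stxbp4, a syntaxin-binding protein also called SYNIP, and Rhoq, the GTPase TC10, were 1.27 ± 0.10 and 1.09 ± 0.08 higher with PPAR gamma siRNA than with control siRNA. The mean of all probe sets of Stxbp4 was 0.68 higher. SYNIP is known to restrain GLUT4 fusion and TC10 to aid it, so that the list does not stand for 1 direction of traffic.

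Other glucose transporters and the first enzymes had 3 genes higher and 2 lower of 13 under PPAR gamma siRNA relative to control siRNA (median 0.08). That is 38.5% called, near the 35.9% of all genes. Hk2, the hexokinase of insulin-sensitive tissues, read 11.36, 10.32 and 10.88 with PPAR gamma siRNA and 11.58, 11.65 and 11.70 with control siRNA, against 8.39, 8.52 and 8.45 in preadipocytes. The PPAR gamma siRNA arrays lay under the control siRNA arrays by amounts that differed widely, and the difference was -0.79 ± 0.20 (SE, limma adjusted p = 0.00948), or -0.52 without PPAR gamma siRNA array 2. Hk1, the general hexokinase, was 0.95 ± 0.11 higher with PPAR gamma siRNA than with control siRNA, and fell by 1.02 in control siRNA adipocytes relative to preadipocytes. Slc2a10 was 0.81 ± 0.14 higher with PPAR gamma siRNA, although it lay under 6 on every adipocyte array. Slc2a9, a urate transporter that lay under 6 throughout, fell by 0.38. Slc2a10 read from another probe set, without types x and s, was 1.81 higher, and Slc2a9 lost its call without PPAR gamma siRNA array 1 or 2 or control siRNA array 1 or 2.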

How the data were processed

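Total RNA was hybridised to 9 arrays, 1 sample each, and groups were taken from the labels. The authors deposited 1 normalised log2 value per probe set and array. No source used here states that scale, which was inferred from values of 2.41 to 14.59. The submitters' processing notes name MAS5, RMA and affy 1.16.0 without a role, and raw array files were not used here. In 10.6%, 6.78% and 8.6% of probe sets at least 2 arrays of the PPAR gamma siRNA, control siRNA and preadipocyte groups held identical values.

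The values were used without rescaling. Of 45101 probe sets, 64 controls were left out. A gene was read from its single-symbol probe set of highest mean over 9 arrays, which gave 18193 genes, and every other probe set of the 9 genes was a check. One linear model of 9 arrays with a mean per group was fitted in limma 3.58.1 (R 4.3.3), with two-sided p adjusted by Benjamini and Hochberg over 45037 probe sets and called under 0.05. The fit was also run on simulated arrays with independent normal values and few changed probe sets. These held neither the identical values within groups nor the share of called genes found here, so they check only the code of the fit. Within-array differences of gene pairs used exact permutation tests. The number of arrays limits the precision.

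Named were the 9 genes, Pparg, up to 2 rising and 2 falling called genes of each list in each comparison, and 5 genes of similar profile for 3 of the 9. Members, lists and motifs were chosen with earlier results of these data known. Replicate numbers did not pair the arrays (correlations of deviations -0.31 to 0.32). Alternatives covered normalisation, dim probe sets (under 6), the samples fitted, variances, probe sets per gene, a replicate block, the Actb difference, a 2-fold minimum and each array left out.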

Additional observations from a re-analysis of the deposited data

How the results depend on the processing

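Of 510 values of the 9 genes under alternative settings, 477 stayed on their side of the threshold, 22 lost a call and 11 gained one. Of 2430 values of the other named genes, 2338 stayed on their side, 71 lost a call and 21 gained one. None of the 322 and 1904 values whose difference was called changed sign, while 13 and 24 values of uncalled differences did. Some settings alter only the variances or leave out an array of a group not compared, so that the difference could not change there. Not every other probe set was read alone. A dimmer probe set of Pik3r1 was called lower, at -0.56, between control siRNA adipocytes and preadipocytes, where its brightest was called higher. Calls with under 2-fold change are numerous: with a 2-fold minimum, 5 in place of 8 of the 9 genes were called between control siRNA adipocytes and preadipocytes. Of the other pathway genes, 14 in place of 51 were then called between PPAR gamma siRNA and control siRNA, 24 in place of 63 between control siRNA adipocytes and preadipocytes, and 14 in place of 44 between PPAR gamma siRNA adipocytes and preadipocytes. For all genes these counts were 1871 in place of 6534, 3544 in place of 9427 and 1693 in place of 6632. Of the within-array pairs, Akt2 minus Akt1 between PPAR gamma siRNA and control siRNA changed sign, to 0.0396 with all probe sets averaged.

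Leaving out each array in turn, 2 to 3 of the 9 genes were called between PPAR gamma siRNA and control siRNA, 7 to 8 between control siRNA adipocytes and preadipocytes and 5 to 8 between PPAR gamma siRNA adipocytes and preadipocytes. With a replicate block, which the pairing check did not support, they were 3, 8 and 6, and those of the other pathway genes 48, 62 and 40. Irs2 between PPAR gamma siRNA adipocytes and preadipocytes gained its call in 5 settings, 0.56 with renewed quantile normalisation and 0.45 in the others. Probe sets dim on all arrays, such as those of Grb10, limit what can be said.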

Other observations

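PPAR gamma siRNA array 1 was the highest of its group in several named genes, among them Sh2b2 and Gys1. It was the lowest of its group in others, among them Grb14, Shc1, Pik3r2 and Rictor. Slc2a1, Hk2 and Trib3 are given here, picked after the values were seen. Slc2a1 read 11.91 there and 10.96 and 11.12 on the other PPAR gamma siRNA arrays. Hk2 read 11.36 there, against 10.32 and 10.88, so that array 2 lay further below array 3 than array 1 lay above it. Trib3 read 10.43 on array 1, against 9.58 and 9.90. Without that array, PPAR gamma siRNA minus control siRNA was 0.13 for Slc2a1, -1.05 for Hk2 and -0.34 for Trib3, in place of 0.42, -0.79 and -0.11. Of these, Hk2 was called with and without it.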
